A study of Homo sapiens with 2 samples.

Results

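The WNT pathway genes described here are the RefSeq protein-coding genes named WNT, FZD, DKK or SFRP plus a number, together with LRP5, LRP6, AXIN1, AXIN2, CTNNB1, APC, LEF1 and TCF7. By that rule there were 45 of 20037 protein-coding genes: 19 ligands, 12 receptors, 8 secreted antagonists, 4 genes of the destruction complex and β-catenin, and 2 transcription factors. Open chromatin around them was read out by ATAC-seq, where the transposase Tn5 cuts accessible DNA and tags it for sequencing. The cells were U2OS, an established human osteosarcoma line, infected either with an sh-VNGD hairpin, aimed at the lncRNA Vanguard, or with a control hairpin, sh-ctrl. Both cultures were grown in DMEM with 10% FBS, and 50000 cells went into each reaction. The series title describes Vanguard as responsive to glucose deprivation and needed for a chromatin-dependent form of DNA repair. The labels name no glucose deprivation, clone or time after infection for either library.

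Each group held 1 library, so no difference below has a replicate check and no test was possible. ATAC-seq does not measure RNA, and the knockdown could not be checked. After removal of repeated positions, 31326715 tags of sh-VNGD and 22931980 of sh-ctrl remained. Repeats were 35% of sh-VNGD tags and 56% of sh-ctrl tags. Over all protein-coding genes, 61.5% had a peak of both libraries at the start or gene end. Among markers of the labelled cell type, 5 of 9 osteoblast and mesenchymal genes had one. Their summit pileups were 19 to 75 tags in sh-VNGD and 11 to 94 in sh-ctrl. RUNX2, VIM, SPARC and ALPL had none at the start, though VIM had a shared region 1918 bp from its start with 91 tags in sh-VNGD against 94 in sh-ctrl. Within 5 kb of RUNX2, ALPL and SPARC, pileups reached 96, 80 and 44 tags in sh-VNGD and 131, 75 and 36 in sh-ctrl. Near SP7, which had a gene-end peak, they reached 136 in sh-VNGD and 163 in sh-ctrl. Of 5 epithelial markers 4 had a peak of both libraries at the start or gene end, among them CDH1 and EPCAM, at 108 to 174 tags in sh-VNGD and 127 to 194 in sh-ctrl. KRT5 had none at its start and a gene-end region of 20 tags in sh-VNGD against 10 in sh-ctrl. Of 5 haematopoietic markers, CD3E and SPI1 had such a peak, at 82 and 113 tags in sh-VNGD against 112 and 105 in sh-ctrl. Of all the markers with such a peak, FN1 and KRT8 were measured at a start in the promoter table. The rest were measured at a gene end, which need not hold the start. A start window spans 300 bases and a gene-end window 1000 bp either side, so the 2 kinds are unlike. Most of the epithelial markers thus had peaks at a start or gene end in both libraries, as did most of all genes. The lists are short, cell identity was not tested, and neither was the part this plays in the results.

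WNT ligands are secreted lipid-modified proteins that bind a frizzled receptor and, for the canonical branch, the co-receptor LRP5 or LRP6. Without ligand, a complex of APC, AXIN and kinases marks β-catenin (CTNNB1) for destruction. With ligand, β-catenin accumulates and joins LEF1, TCF7 and related factors on DNA, and AXIN2, LEF1, TCF7 and DKK1 are themselves well-known targets. DKK proteins block the co-receptors, and SFRP proteins bind the ligands outside the cell. In bone the pathway is known for driving osteoblast formation.

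The RefSeq promoter sequences (GRCh38.p14, 250 bases before the start to 50 after) covered 31 of the 45 genes, and 6 of them are printed. They are the highest promoter (FZD1), both promoters whose counting interval lay above the genome-wide centre (AXIN1 and WNT2B), the one promoter with a LEF/TCF-type motif (DKK1), and a pair with no called peak (WNT7A and SFRP2). Capitals mark matches, on either strand, to CTTTGA (the LEF/TCF core), GGGCGG (the GC box), CCAAT (bound by NF-Y) or the TATA box sequence TATAAA, with overlapping matches each counted.
FZD1: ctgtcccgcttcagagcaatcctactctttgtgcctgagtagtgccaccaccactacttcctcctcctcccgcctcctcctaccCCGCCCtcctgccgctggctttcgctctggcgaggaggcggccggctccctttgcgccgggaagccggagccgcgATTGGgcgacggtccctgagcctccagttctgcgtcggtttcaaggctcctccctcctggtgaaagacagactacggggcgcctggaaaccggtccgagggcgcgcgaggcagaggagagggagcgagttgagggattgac
AXIN1: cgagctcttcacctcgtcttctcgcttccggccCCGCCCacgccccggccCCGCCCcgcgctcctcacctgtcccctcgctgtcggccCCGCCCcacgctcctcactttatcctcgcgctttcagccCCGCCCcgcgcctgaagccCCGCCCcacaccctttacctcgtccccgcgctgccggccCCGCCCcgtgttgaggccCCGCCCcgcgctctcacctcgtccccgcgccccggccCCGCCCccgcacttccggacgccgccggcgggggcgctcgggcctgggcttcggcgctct
WNT2B: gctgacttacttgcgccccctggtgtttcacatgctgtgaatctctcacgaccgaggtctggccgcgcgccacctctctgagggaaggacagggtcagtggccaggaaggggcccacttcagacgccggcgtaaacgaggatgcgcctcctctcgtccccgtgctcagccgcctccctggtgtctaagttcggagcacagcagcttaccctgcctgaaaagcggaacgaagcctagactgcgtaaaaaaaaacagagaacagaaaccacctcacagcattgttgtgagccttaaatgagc
DKK1: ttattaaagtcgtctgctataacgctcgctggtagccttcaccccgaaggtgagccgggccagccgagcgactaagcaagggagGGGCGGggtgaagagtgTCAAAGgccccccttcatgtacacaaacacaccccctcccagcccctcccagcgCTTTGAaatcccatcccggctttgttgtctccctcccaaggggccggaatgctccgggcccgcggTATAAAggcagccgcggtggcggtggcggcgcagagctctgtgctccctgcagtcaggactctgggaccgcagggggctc
WNT7A: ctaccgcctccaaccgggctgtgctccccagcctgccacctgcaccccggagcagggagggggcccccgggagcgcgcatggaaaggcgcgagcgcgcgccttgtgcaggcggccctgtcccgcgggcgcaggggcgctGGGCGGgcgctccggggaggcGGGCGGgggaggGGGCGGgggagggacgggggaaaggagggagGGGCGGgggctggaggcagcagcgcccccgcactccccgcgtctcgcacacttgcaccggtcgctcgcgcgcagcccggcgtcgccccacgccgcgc
SFRP2: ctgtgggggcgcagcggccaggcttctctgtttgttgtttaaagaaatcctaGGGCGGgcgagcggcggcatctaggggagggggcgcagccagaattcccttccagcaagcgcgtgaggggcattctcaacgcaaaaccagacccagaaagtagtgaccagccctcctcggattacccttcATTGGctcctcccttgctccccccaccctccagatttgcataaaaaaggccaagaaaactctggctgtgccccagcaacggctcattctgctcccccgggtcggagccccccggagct
FZD1 lies on the plus strand at chr7:91264183-91264482, WNT2B on the plus strand at chr1:112466291-112466590 and DKK1 on the plus strand at chr10:52314031-52314330. AXIN1 lies on the minus strand at chr16:352674-352973, WNT7A on the minus strand at chr3:13880022-13880321 and SFRP2 on the minus strand at chr4:153789034-153789333.

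The median GC content of the WNT gene promoters was 72.7% over the 31, against 62.7% over 15842 protein-coding promoters. GGGCGG stood in 26 of 31 (83.9%) against 58.5% of all. AXIN1 held 8 matches, while WNT2B, at 57.7% GC, held no match to any of the motifs. CTTTGA stood in DKK1 alone among the 31 (3.23%) against 10.9% of all, and DKK1 carried it once on each strand together with a match to TATAAA. The shares for CCAAT were 38.7% of the 31 and 36.4% of all, and those for TATAAA were 9.68% and 9.63%. The 14 WNT promoters with no peak in either library had a median GC content of 68.0% and a CpG observed-over-expected ratio of 0.686. All 5677 promoters without a peak had 54.3% and 0.325. The 14 ranged from WNT8B at 45.7% GC to WNT7A at 80.3%, and LEF1 at 47.0% and WNT5B at 51.7% also lay below the median of all promoters without a peak. The 15 WNT promoters with a peak of both libraries had 74.0% and 0.853, and all 9696 such promoters had 66.0% and 0.854. These matches describe letters in a window of 300 bases and locate no bound factor.

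Of the 45 genes, 24 (53.3%) had a promoter region with a peak of both libraries, against 61.5% of all protein-coding genes. A region here is the union of overlapping peaks of the libraries. For genes with no entry in the promoter table, the gene end within 1000 bp of which the higher pileup lay was used, marked "gene end" below, and that end need not hold the start. One gene, DKK2, had a gene-end peak of sh-VNGD only, of 16 tags (background 2.78%). WNT5A and LRP5 had a start peak of sh-ctrl only, of 14 and 16 tags (background 1.88%). No peak of either library lay at the promoters of 18 (background 33.8%). The lists hold called peaks only, with at least 7 tags in sh-VNGD or 6 in sh-ctrl, so a missing peak is no measure of closed chromatin.

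Levels are the deposited summit pileup, the number of tags covering the summit, in which a share of cells with an open site and openness per cell cannot be told apart. Ratios are the log2 of sh-VNGD over sh-ctrl after division by kept tags. Over 12304 genes the median of that ratio was -0.45, so promoter ratios below are given relative to it, with exact 95% counting intervals that say nothing of differences between cultures. By this measure the WNT genes stood near the same centre: their median was -0.44 over 24 genes before that subtraction. After it, 12 lay above 0, 10 below and 2 at 0. A single WNT promoter, AXIN1, was higher by 1.5-fold (background 6.46%) and a single one, FZD7, was lower by 1.5-fold (background 3.06%), which are shares of 4.17% each. By the authors' fold enrichment AXIN1 fell short of 1.5-fold, at 0.21, and WNT2B passed it, at 0.69, so the count of 1 higher then held another gene. Intervals lay wholly above 0 for AXIN1 and WNT2B (background 4.16%) and wholly below for FZD7 (background 4.03%).

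**Figure D1:**
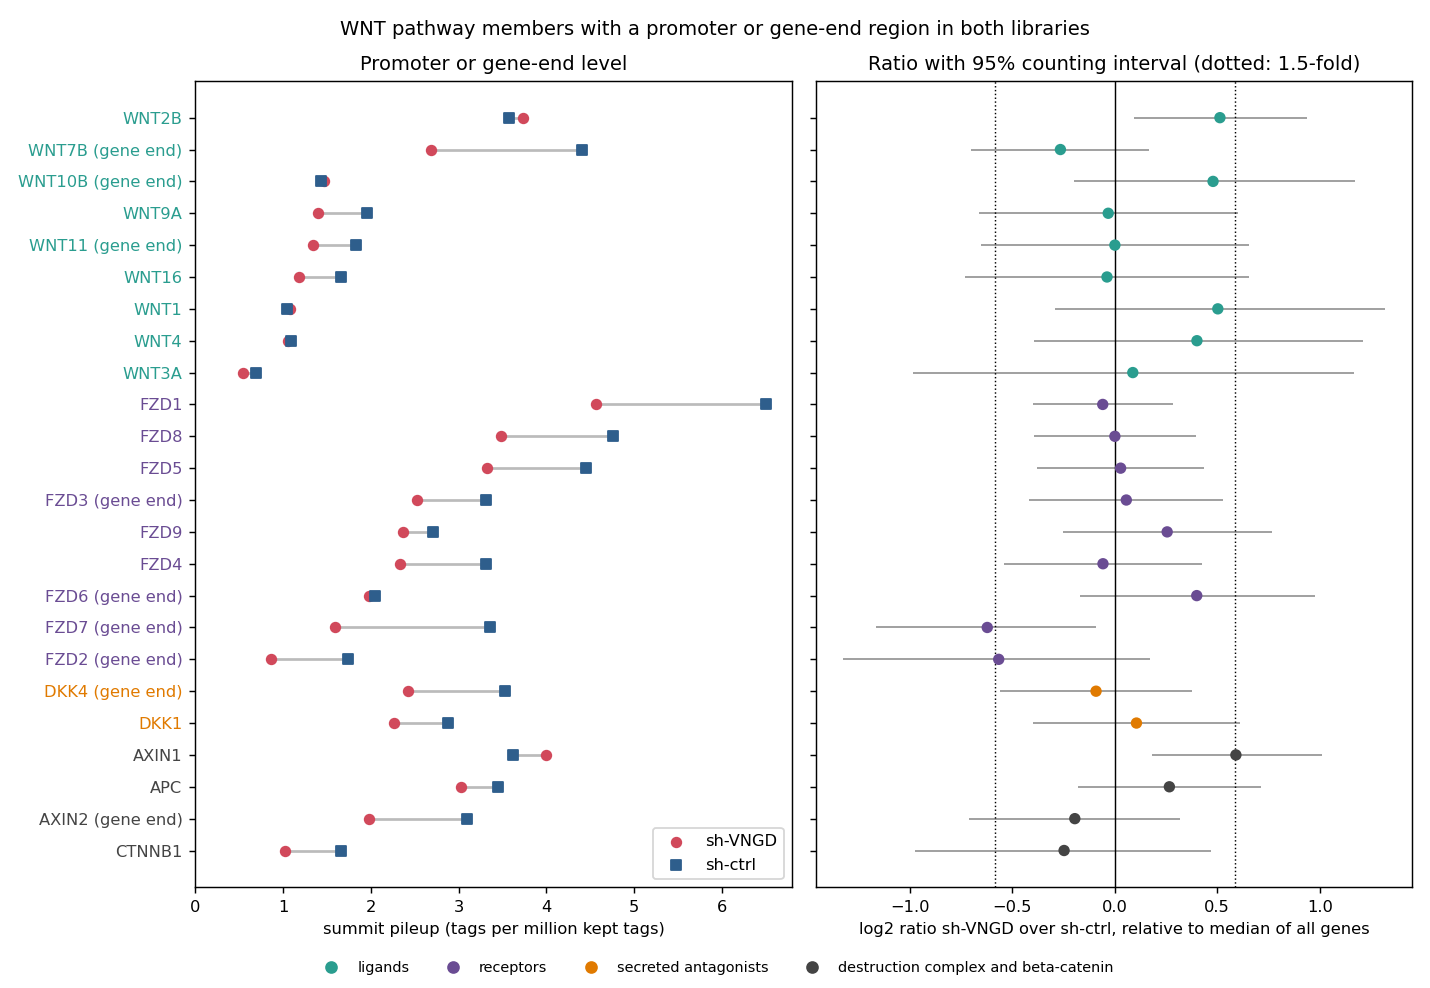
Summit pileup per 1000000 kept tags (left) in sh-VNGD (circles) and sh-ctrl (squares) for the 24 WNT genes with a promoter or gene-end region in both libraries, grouped by role, and the log2 ratio of sh-VNGD over sh-ctrl relative to the median of all genes (right; bars are 95% counting intervals, dotted lines 1.5-fold). FZD1 has the highest level in both libraries, and AXIN1, WNT2B and FZD7 are the genes whose bars miss 0.

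Among the ligands, 9 of 19 had a promoter region in both libraries (background 61.5%), and none was past 1.5-fold in either direction. WNT2B, a canonical ligand, had the highest of them in sh-VNGD, with 117 tags in sh-VNGD against 82 in sh-ctrl and a relative log2 ratio of 0.51 (0.09 to 0.94). WNT7B, best known from lung and bone development, had the highest in sh-ctrl, with 84 tags at its gene end in sh-VNGD against 101 in sh-ctrl. Its ratio was -0.27 (-0.70 to 0.17) and turned to 0.20 by the authors' fold enrichment, of 11.2 in sh-VNGD against 10.6 in sh-ctrl. A shared region at the other gene end of WNT7B, chr22:45977016-45977458, held 64 tags in sh-VNGD against 59 in sh-ctrl. The log2 ratio of that region before centring was -0.33, above the median of -0.45 over genes. WNT7B thus ranked highest in sh-ctrl by 1 of its ends only, and that end need not hold the start. The other 7 were WNT1, WNT10B (gene end), WNT11 (gene end), WNT16, WNT3A, WNT4 and WNT9A. They ranged from 17 to 46 tags in sh-VNGD and from 16 to 45 in sh-ctrl. The ligand starts or gene ends were thus mostly low in both libraries. WNT1, the founding member of the family, had 34 tags in sh-VNGD against 24 in sh-ctrl, and its ratio of 0.50 had an interval of -0.29 to 1.32. WNT16, which is linked to cortical bone, had 37 tags in sh-VNGD against 38 in sh-ctrl. WNT3A, the ligand most used to switch the canonical branch on in culture, was the lowest, with 17 tags in sh-VNGD against 16 in sh-ctrl. All intervals of these 7 spanned 0.

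No peak of either library lay at the start in the promoter table for 9 ligand genes, WNT10A, WNT2, WNT3, WNT5B, WNT6, WNT7A, WNT8A, WNT8B and WNT9B. That start lies 6736, 6666 and 18394 bp inside the outer bound for WNT10A, WNT8A and WNT9B. Within 1000 bp of a gene end, WNT10A had a shared region of 39 tags in sh-VNGD against 41 in sh-ctrl. WNT8A had one of 22 tags in sh-VNGD against 18 in sh-ctrl, and WNT8B one of 43 against 50. WNT5A, the main non-canonical ligand, had the sh-ctrl peak of 14 tags only, and its highest shared region, 2062 bp downstream, held 23 tags in sh-VNGD against 24 in sh-ctrl. Of these genes, WNT2 alone lacked a shared region elsewhere within 5 kb. WNT8B had no start peak but a shared region 18672 bp downstream, also within 5 kb of SEC31B, with 88 tags in sh-VNGD against 89 in sh-ctrl. WNT5B had one at 17725 bp with 55 tags in sh-VNGD against 42 in sh-ctrl. WNT3A likewise was higher at 6494 bp inside the gene than at its start, with 70 tags in sh-VNGD against 62 in sh-ctrl. The highest shared regions of WNT10A, WNT3, WNT6, WNT8A and WNT9B held 16 to 39 tags in sh-VNGD against 12 to 41 in sh-ctrl. WNT2 had 4 regions of sh-VNGD only, of 13 to 15 tags.

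Of the frizzled receptors, 9 of 10 had a promoter region in both libraries (background 61.5%). FZD2, FZD3, FZD6 and FZD7 among them were measured at a gene end. With gene ends used for every gene, the share of all genes was 69.8%. FZD1 had 143 tags in sh-VNGD against 149 in sh-ctrl, placing it at percentile 91.9 of the genes with a ratio in sh-VNGD and 91.6 in sh-ctrl, and a relative log2 ratio of -0.06 (-0.40 to 0.28). FZD8 had 109 tags in each library, a ratio of 0.00 (-0.40 to 0.40). FZD5 had 104 tags in sh-VNGD against 102 in sh-ctrl, a ratio of 0.03 (-0.38 to 0.44). At these 3 the difference stayed within counting error, and the counting intervals leave out a change of 1.5-fold either way. FZD3, a receptor of planar cell polarity, had 79 tags at its gene end in sh-VNGD against 76 in sh-ctrl, FZD4, the norrin receptor, 73 in sh-VNGD and 76 in sh-ctrl, and FZD9 74 in sh-VNGD and 62 in sh-ctrl. FZD6 had 62 at its gene end in sh-VNGD and 47 in sh-ctrl. All of their intervals spanned 0.

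FZD7, a receptor much studied in stem and cancer cells, was the exception, with 50 tags at its gene end in sh-VNGD against 77 in sh-ctrl. Its relative log2 ratio was -0.62 (-1.17 to -0.09), a value of 1 library each. With each library's peaks matched only when their summits lay within 250 bp, this FZD7 region gave no ratio and the value from the other gene end was -0.56. By the authors' fold enrichment the FZD7 ratio was -0.34. Both stayed lower in sh-VNGD but short of 1.5-fold. FZD2, also at its gene end, had 27 tags in sh-VNGD against 40 in sh-ctrl, a ratio of -0.57 whose interval (-1.33 to 0.17) spanned 0. FZD10 had no region within 5 kb at all and was the only one of the 45 without one.

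LRP5 had no shared region at the start in the table, and LRP6 had none at either gene end. LRP5 had the 16-tag sh-ctrl peak there, and its strong regions lay inside the gene. A shared region at its outer gene end, 14679 bp before the start in the table, held 59 tags in sh-VNGD against 62 in sh-ctrl. LRP6 had 23 regions, and none held more than 17 tags in sh-VNGD or 16 in sh-ctrl. Its highest shared region by depth-scaled pileup held 12 tags in sh-VNGD against 16 in sh-ctrl.

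Of the secreted antagonists 2 of 8 had a promoter region in both libraries, against 61.5% of all genes. DKK1, the LRP5 and LRP6 blocker and WNT target, had 71 tags in sh-VNGD against 66 in sh-ctrl, a relative log2 ratio of 0.11 (-0.40 to 0.61). DKK4 had 76 tags at its gene end in sh-VNGD against 81 in sh-ctrl, in a region that the neighbouring gene VDAC3 shares. Both differed by less than counting error. DKK2 and DKK3 were accessible inside the gene instead. DKK2 had 92 tags in sh-VNGD against 73 in sh-ctrl at chr4:106935049-106935872, and DKK3 had 78 tags in each library at chr11:11966839-11967218, within 5 kb of USP47. None of SFRP2, SFRP4 and SFRP5 had a peak at the start, and SFRP1 had none at either gene end. SFRP4 came nearest, with a shared region 433 bp before the start of 24 tags in sh-VNGD against 33 in sh-ctrl and another 3833 bp before it of 46 tags in sh-VNGD against 32 in sh-ctrl. SFRP5 and SFRP2 had at most 27 and 25 tags in sh-VNGD and 23 and 24 in sh-ctrl, and SFRP1 a shared region of 15 tags in sh-VNGD against 9 in sh-ctrl.

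All 4 genes of the destruction complex and β-catenin had a promoter region in both libraries (background 61.5%). AXIN1, the scaffold of the complex, had 125 tags in sh-VNGD against 83 in sh-ctrl, a relative log2 ratio of 0.59 (0.18 to 1.01). That value lies just past the 1.5-fold line, as 0.58 is that line on the log2 scale, and by fold enrichment it was 0.21. APC, the tumour suppressor that holds β-catenin in the complex, had 95 tags in sh-VNGD against 79 in sh-ctrl, a ratio of 0.27 (-0.18 to 0.72). AXIN2, the feedback scaffold used as a readout of WNT signalling, had 62 tags at its gene end in sh-VNGD against 71 in sh-ctrl, a ratio of -0.20 (-0.71 to 0.32). CTNNB1, the gene of β-catenin, had a low start, with 32 tags in sh-VNGD against 38 in sh-ctrl, at percentile 13.3 of genes in sh-VNGD and 20.1 in sh-ctrl. Its ratio was -0.25 (-0.97 to 0.47). So of the 4, AXIN1 alone was higher in sh-VNGD beyond counting error by pileup.

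Neither LEF1 nor TCF7 had a peak in the promoter window of the table. Both had one nearby. LEF1 had a region at its outer gene end, 2580 bp before the start and also within 5 kb of LOC124900752, with 38 tags in sh-VNGD against 21 in sh-ctrl. TCF7 had one 989 bp before the start, also within 5 kb of VDAC1, with 87 tags in sh-VNGD against 81 in sh-ctrl. When gene ends were used for every gene, the LEF1 gene-end ratio was 0.86 (0.05 to 1.70), and LEF1 joined AXIN1 among those past 1.5-fold.

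Within 5 kb of the 45 genes lay 326 regions, of which 157 (48.2%) held a peak of both libraries. Peak coordinates are given on hg38, as in the deposited lists. A region relative log2 ratio is taken against the median of 86204 shared regions near protein-coding genes, which was -0.31. Of the 157, 14 (8.92%) were higher by 1.5-fold (background 11.7%) and 20 (12.7%) lower (background 10.0%). Intervals lay wholly above 0 for 5, or 3.18% (background 3.19%), and wholly below for 11, or 7.01% (background 7.64%). These shares are near those of all genes. By role, 10 of 41 receptor regions (24.4%) were lower by 1.5-fold, and 5 of the 10 lay in LRP5. Without LRP5 the receptors had 5 of 33. In all, 3 of the 11 wholly below 0 lay in LRP5. Regions of 1 gene share their neighbourhood and are not independent, and 57 of the 326 (17.5%) also lay within 5 kb of a protein-coding gene outside the list.

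**Figure D2:**
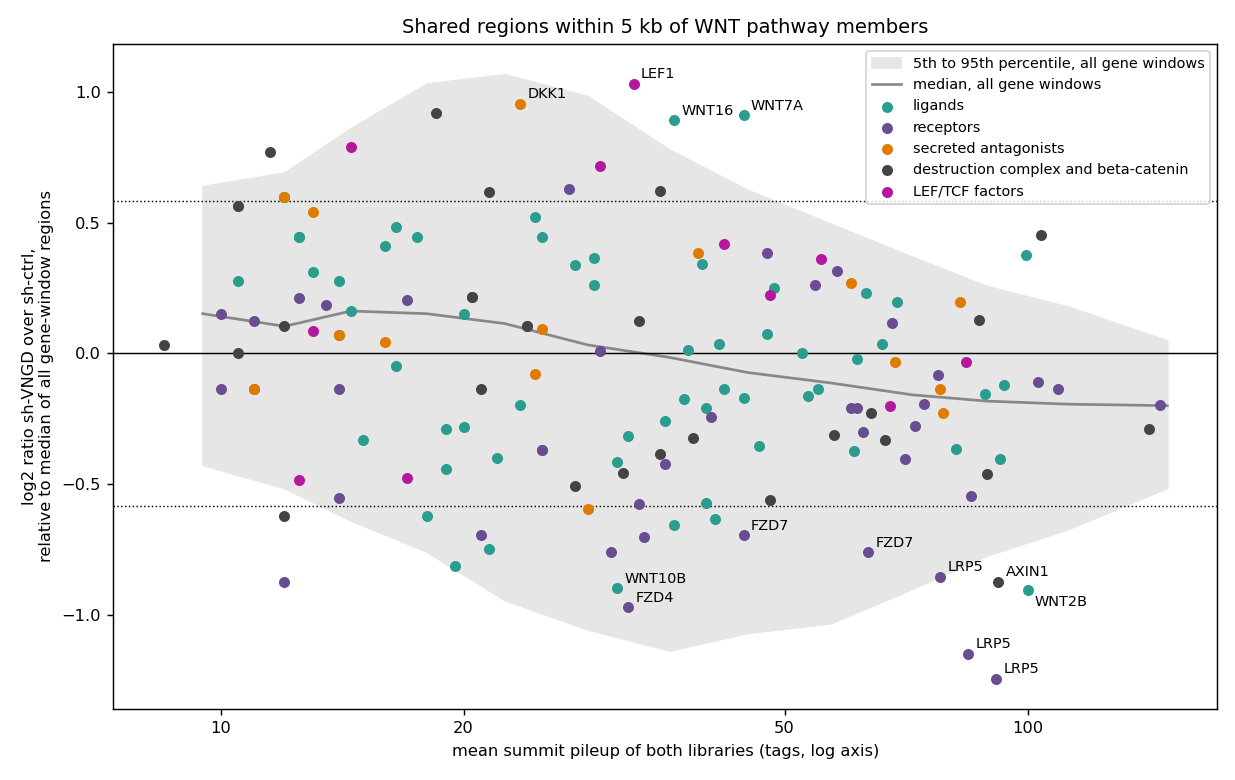
Log2 ratio of sh-VNGD over sh-ctrl for shared regions within 5 kb of the WNT genes, relative to the median of all shared regions near protein-coding genes, against the mean summit pileup of both libraries (log axis). Points are coloured by role, grey marks the 5th to 95th percentile of all such regions at that pileup, and named points are those past 1.5-fold (dotted) with an interval that misses 0. The LRP5 regions at relative ratios of -1.25 and -1.15 lie lowest, and a LEF1 region at 1.03 highest.

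Inside LRP5, strong regions were lower in sh-VNGD. At chr11:68342414-68343241, 30334 bp downstream of the start, there were 58 tags in sh-VNGD against 125 in sh-ctrl, a relative log2 ratio of -1.25 (-1.72 to -0.78). At chr11:68380231-68380984, 67957 bp downstream, there were 56 tags in sh-VNGD against 113 in sh-ctrl, a ratio of -1.15 (-1.64 to -0.68). Beside the first of these, at chr11:68343858-68344217, 59 tags in sh-VNGD stood against 97 in sh-ctrl, a ratio of -0.85 (-1.35 to -0.37). The lowering was not uniform along the gene. A region 42061 bp downstream had 69 tags in sh-VNGD against 76 in sh-ctrl, a ratio of -0.28 (-0.77 to 0.21), and one 134798 bp downstream had 67 tags in sh-VNGD against 49 in sh-ctrl, a ratio of 0.31 (-0.24 to 0.88). The local background also moved. At the first region it was 0.276 tags per 1000000 kept tags in sh-VNGD against 0.559 in sh-ctrl, and at the second 0.174 in sh-VNGD against 0.327 in sh-ctrl. The authors' fold enrichment over that background was 6.12 in sh-VNGD against 9.12 in sh-ctrl at the first, and 8.85 in sh-VNGD against 13.4 in sh-ctrl at the second. Relative ratios of fold enrichment were -0.49, -0.52 and, for the neighbour, -0.13, none past 1.5-fold.

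Strong regions as a class had lower ratios. Near all protein-coding genes, shared regions whose higher pileup reached 100 tags had a median relative log2 ratio of -0.21. In that class 10.5% were lower by 1.5-fold, against 10.0% of all shared regions near protein-coding genes. Of the 11 WNT gene regions in it, 4 (36.4%) were lower, and these include the LRP5 regions at ratios below -1. At 50 to under 100 tags, 3 of 46 WNT gene regions (6.52%) were lower, against 16.5% near all protein-coding genes. Among 6649 shared regions near genes with at least 100 tags in sh-ctrl, 791 (11.9%) were lower by 1.5-fold. At least 1 of these 791 occurred in 859 genes. At least 2 occurred in 99 genes, 0.494% of all, and LRP5 is one of the 99. Picking regions by sh-ctrl tags alone favours lower ratios, because sh-ctrl is 1 side of the ratio. These counts were made after the LRP5 values had been seen. With the centre taken within classes of mean pileup, the LRP5 ratios were -1.09, -1.0 and -0.70.

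WNT2B and AXIN1 each had a strong region with a lower ratio and a promoter with a higher one. In WNT2B a region 1935 bp before the start, chr1:112464407-112464945, had 74 tags in sh-VNGD against 126 in sh-ctrl, a relative log2 ratio of -0.91 (-1.34 to -0.48). The promoter region beside it, with more tags in sh-VNGD, had a ratio of 0.38 (-0.04 to 0.80) on the same scale. Both lie also within 5 kb of CTTNBP2NL. In AXIN1 the region at chr16:316787-317409, 35747 bp inside the gene, had 69 tags in sh-VNGD against 115 in sh-ctrl, a ratio of -0.87 (-1.33 to -0.43), while its promoter stood at 0.45 (0.04 to 0.87). The strongest AXIN1 region, 25411 bp inside, had 134 tags in sh-VNGD against 149 in sh-ctrl, a ratio of -0.29 (-0.64 to 0.06). By the authors' fold enrichment the inner AXIN1 ratio was -0.27 and the upstream WNT2B ratio -0.61.

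The other lowered regions with intervals below 0 were weaker. FZD7 had 36 tags in sh-VNGD against 53 in sh-ctrl at chr2:202038977-202039309, a ratio of -0.70 (-1.35 to -0.06), besides its gene-end region at -0.76 (-1.30 to -0.23). FZD4 had 23 tags in sh-VNGD against 41 in sh-ctrl in a region downstream of the gene that lies within 5 kb of PRSS23, a ratio of -0.97 (-1.78 to -0.20). WNT10B had 23 tags in sh-VNGD against 39 in sh-ctrl just outside its bounds, a ratio of -0.90 (-1.71 to -0.12). Less than 1.5-fold were FZD3 at -0.55 (-1.01 to -0.09), with 73 tags in sh-VNGD against 97 in sh-ctrl outside its bounds and within 5 kb of FBXO16, and APC at -0.46 (-0.91 to -0.02). That APC region, 30312 bp inside the gene, which is known to have alternative promoters, had 79 tags in sh-VNGD against 99 in sh-ctrl and a fold enrichment of 18.0 in sh-VNGD and 22.5 in sh-ctrl.

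Of the 5 regions with intervals above 0, the AXIN1 promoter was the only one at a start. In LEF1, 3 of 7 shared regions were higher by 1.5-fold (background 11.7%) and none lower (background 10.0%). The largest, at chr4:108060182-108060509 and 105951 bp inside the gene, had 45 tags in sh-VNGD against 20 in sh-ctrl, a ratio of 1.03 (0.24 to 1.87). The LEF1 gene-end region stood at 0.72 (-0.09 to 1.56) on this scale, and one with 19 tags in sh-VNGD against 10 in sh-ctrl at 0.79 (-0.39 to 2.06), so the interval of the largest alone missed 0. The neighbouring LEF1 region, with 54 tags in sh-VNGD against 42 in sh-ctrl, had a ratio of 0.23 (-0.38 to 0.84). Near all protein-coding genes, 21.0% of shared regions whose higher pileup was 20 to under 50 tags were higher by 1.5-fold. Under 20 tags the share was 8.38%. WNT7A, with no start peak, had 60 tags in sh-VNGD against 29 in sh-ctrl 25977 bp inside the gene, a ratio of 0.91 (0.25 to 1.60). WNT16 had 49 tags in sh-VNGD against 24 in sh-ctrl 8704 bp before its start, a ratio of 0.89 (0.16 to 1.66). The local background there was 0.252 tags per 1000000 in sh-VNGD against 0.145 in sh-ctrl, and the ratio by fold enrichment was 0.04. DKK1 had 32 tags in sh-VNGD against 15 in sh-ctrl 7715 bp downstream of its start, a ratio of 0.96 (0.03 to 1.95). CTNNB1 had 25 tags in sh-VNGD against 12 in sh-ctrl 31740 bp inside the gene, at 0.92 (-0.13 to 2.05).

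**Figure D3:**
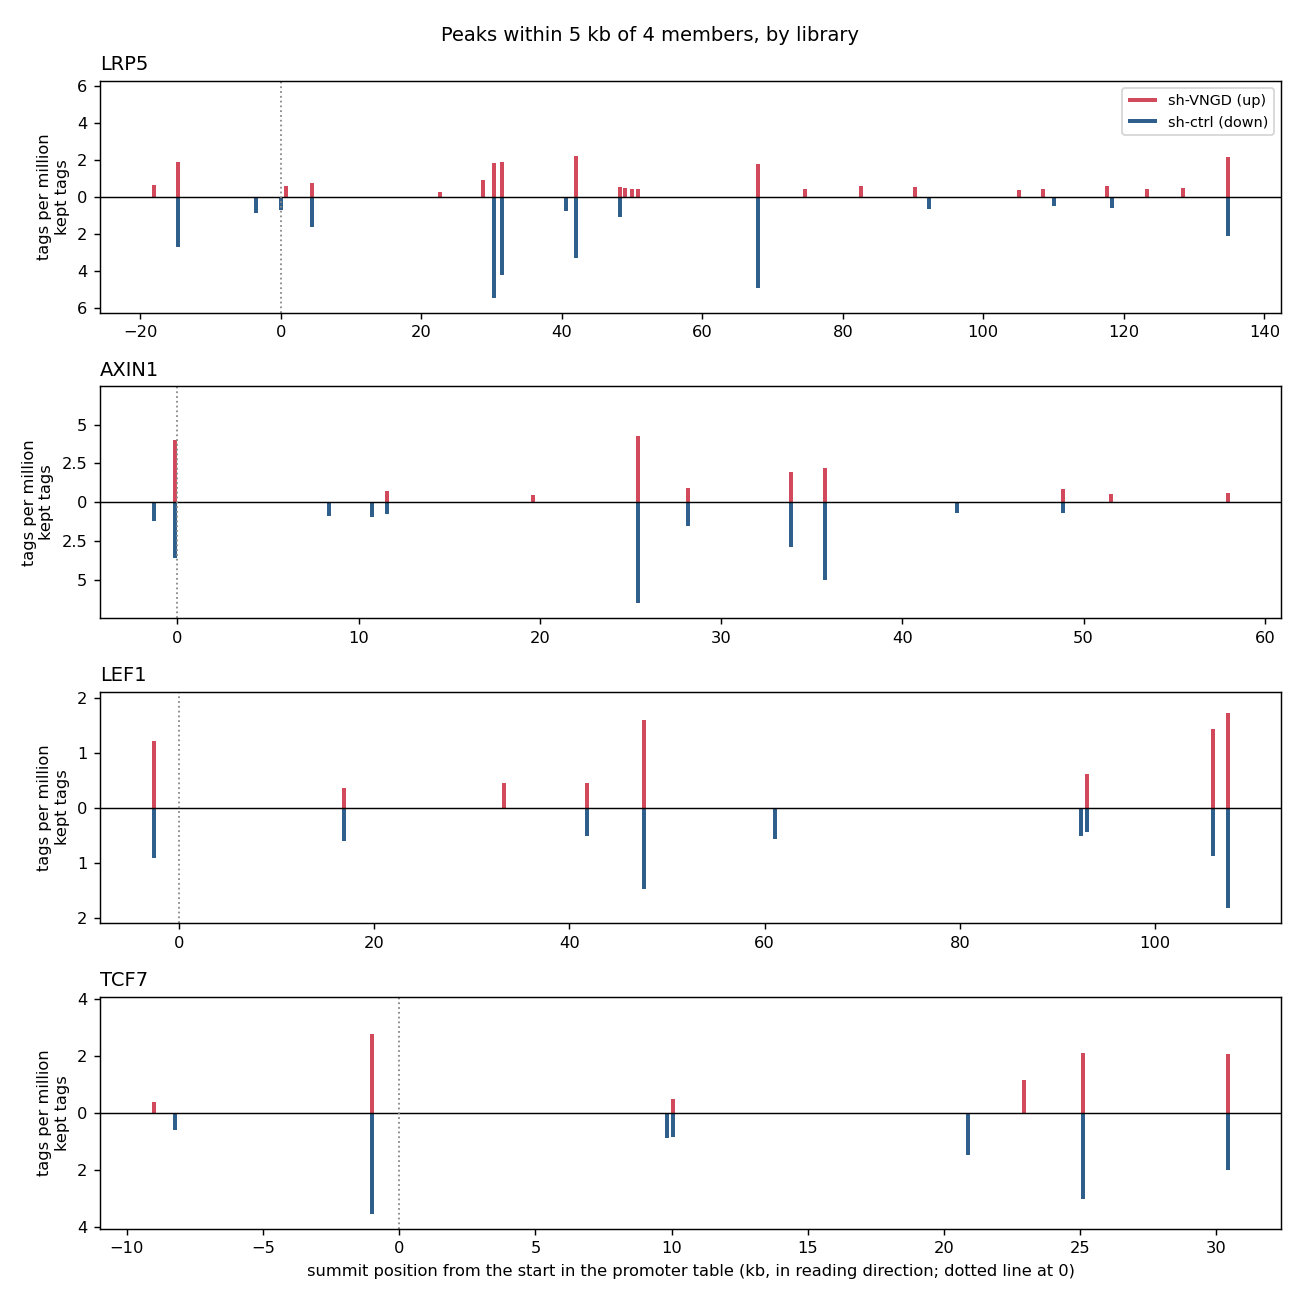
Summit pileup per 1000000 kept tags at each peak in and around LRP5, AXIN1, LEF1 and TCF7, with sh-VNGD drawn upward and sh-ctrl downward, against distance in kb from the start in the promoter table (dotted). In LRP5 the bars about 30 and 68 kb inside the gene are the ones with far more tags in sh-ctrl, 125 and 113 before scaling, than in sh-VNGD, 58 and 56.

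Regions of 1 library only made up the rest. There were 106 of sh-VNGD only, 32.5% (27.7 to 37.8, Wilson 95% interval), against 38.5% near all genes. Regions of sh-ctrl only numbered 63, or 19.3% (15.4 to 24.0), against 16.9% near all genes. The intervals treat regions of 1 gene as independent, which they are not. Among regions under 20 tags, which held 97 of the 106, the sh-VNGD share was 51.9% for the WNT genes and 52.4% for all genes. The sh-ctrl share in that class was 27.8% for the WNT genes and 22.8% for all genes. At 20 to under 50 tags the sh-VNGD share was 10.98% for the WNT genes and 19.9% for all genes. The sh-ctrl share there was 13.4% for the WNT genes and 8.71% for all genes. The sh-VNGD shares were thus close under 20 tags but not at 20 to under 50. Regions of 1 library were weak, with a median of 14 tags in sh-VNGD against 12 in sh-ctrl. By the higher of the pileups, all 46 WNT gene regions with 50 to under 100 tags and all 11 with 100 or more were shared. At 30 tags or more, 1 region was of sh-VNGD only (background 0.822%) and 3 of sh-ctrl only (background 0.736%). TCF7 held one of each: a sh-VNGD region of 36 tags at chr5:134138410-134138718 and a sh-ctrl region of 34 tags at chr5:134136327-134136614. The others were sh-ctrl regions of 46 tags in WNT7B at chr22:45975842-45976131 and of 30 tags in FZD5. The TCF7 regions shared by both libraries differed by less than counting error: 66 tags in sh-VNGD against 69 in sh-ctrl at 25086 bp, and 65 tags in sh-VNGD against 46 in sh-ctrl at 30416 bp. LRP5 had 15 regions of sh-VNGD only and 6 of sh-ctrl only among its 29.

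**Figure D4:**
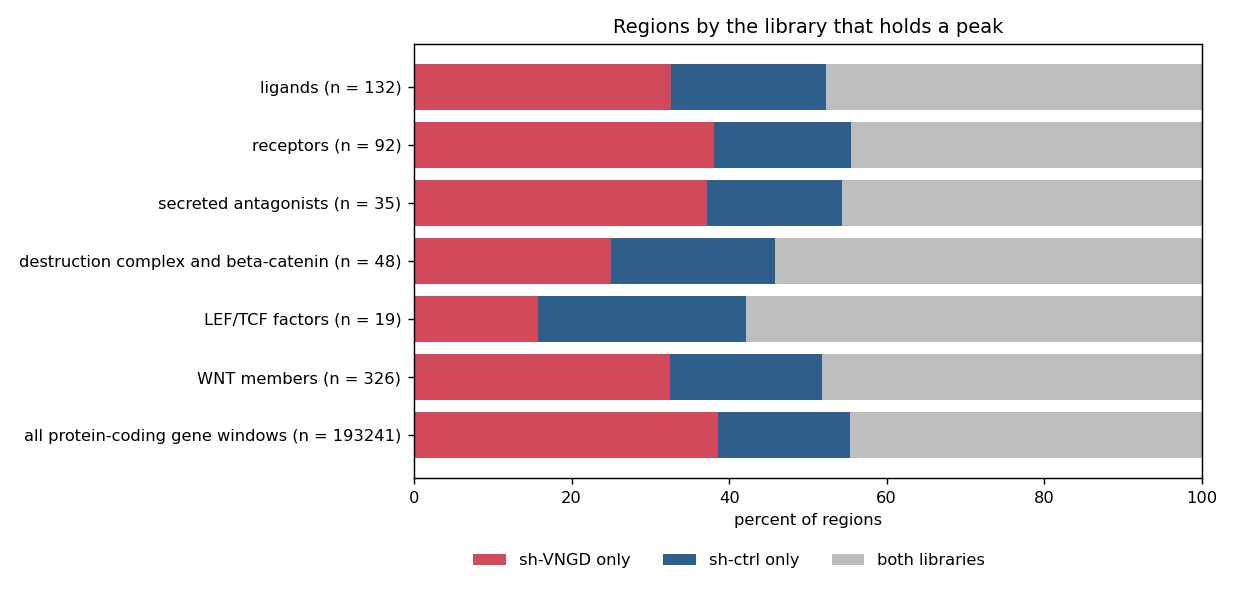
Percent of regions within 5 kb of the genes that hold a peak of sh-VNGD only, sh-ctrl only or both libraries, by role (number of regions in brackets), for all WNT genes and for all protein-coding genes. The sh-VNGD share was 32.5% for the WNT genes and 38.5% for all genes.

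Genes elsewhere in the pathway were likewise centred near all genes. Of 60 further WNT pathway genes, 44 (73.3%) had a promoter region in both libraries (background 61.5%). Over 43 with a ratio the relative median was 0.08. PTK7, a non-canonical co-receptor, was higher by 1.5-fold (background 6.46%), at 0.82 with 23 tags in sh-VNGD against 13 in sh-ctrl. Its interval (-0.22 to 1.93) spanned 0. The WNT inhibitor WIF1 was lower, at -0.58 with 18 tags in sh-VNGD against 27 in sh-ctrl (-1.53 to 0.33). GSK3B, a kinase of the destruction complex, had 183 tags in sh-VNGD against 191 in sh-ctrl and a ratio of -0.06 (-0.36 to 0.24). CSNK1A1 had 92 tags in sh-VNGD against 130 in sh-ctrl, a ratio of -0.50 (-0.90 to -0.10). AMER1, at -0.43 (-0.86 to -0.0003), also had an interval wholly below 0 (background 4.03%). DKKL1, with 121 tags in sh-VNGD against 88 in sh-ctrl, lay wholly above, at 0.46 (0.05 to 0.87; background 4.16%). The factors TCF7L1 and TCF7L2, relatives of LEF1 and TCF7, did have promoter regions, with 51 and 94 tags in sh-VNGD against 59 and 111 in sh-ctrl. DVL1 had a start peak of sh-VNGD only (background 2.78%), and RSPO2 a gene-end peak of sh-ctrl only (background 1.88%).

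Of 29 WNT target genes, 19 (65.5%) had a promoter region in both libraries (background 61.5%). Over 18 with a ratio the relative median was 0.00. AXIN2, DKK1, LEF1 and TCF7 are among the 29. TWIST1, a mesenchymal transcription factor, was the one target higher by 1.5-fold (background 6.46%) and none was lower (background 3.06%). It had 41 tags at its gene end in sh-VNGD against 12 in sh-ctrl, a relative log2 ratio of 1.77 (0.82 to 2.84). Among genes with at least 30 tags in either library, 1.22% were higher by 2-fold and 0.421% lower. Among the other targets, CCND1, which encodes cyclin D1, had 122 tags in sh-VNGD against 174 in sh-ctrl, a ratio of -0.51 (-0.86 to -0.17), short of 1.5-fold. TWIST1 is also one of the mesenchymal markers used above.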

How the data were processed

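Peaks were called by the authors with MACS 2.1.0.20150731 on each library by itself and with no control, per the file headers: tags shifted by 100 bp and extended to 200 bp, 1 tag per position kept, q cutoff 0.05, effective genome size 3.27e+09, local background over 10000 bp. Builds hg38 and GRCh38.p13, deepTools, Bowtie2 2.2.5 and MACS2 2.1.2 are listed in the submitters' processing notes, so the notes and headers differ in the MACS version. The sh-VNGD library had 48164322 tags before filtering and sh-ctrl 51628228, per the file headers. The deposited pileup is a signal, the unscaled number of tags over a summit. The fold enrichment and the −log10 p and −log10 q are the authors' deposited values against local background. The filtering of alignments is not stated in the labels or headers.

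For chromosomes 1 to 22, X and Y, peaks were merged into regions at 1 bp of overlap, taking the highest pileup of each library. Gene bounds and names were those of RefSeq on GRCh38.p14, without exons, so regions are placed only inside or outside gene bounds. Promoter windows were the RefSeq promoters, for 15842 of the genes, and otherwise 1000 bp either side of the outer gene ends. Ratios used pileup divided by kept tags, with exact Clopper-Pearson 95% intervals for a ratio of counts. Called means 1.5-fold from the median of all genes or regions. No p-value was computed. The genes and lists were chosen with earlier results of these data known.

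Values were given in full for AXIN2, LEF1, TCF7, CTNNB1, APC, LRP5, LRP6, AXIN1, DKK1 and WNT5A, for genes with a promoter past 1.5-fold, for the 10 with the highest shared region, for those with a region of 1 library only of at least 30 tags, and for genes of the other lists past 2-fold with 30 tags. Other genes, among them PTK7, WIF1, GSK3B, CSNK1A1, AMER1, DKKL1, TCF7L1, TCF7L2, DVL1, RSPO2 and CCND1, were named after their values were seen. Of 30 target entries 29 matched a symbol. Python 3.11.15, NumPy 2.4.6, pandas 2.3.3, SciPy 1.17.1 and Matplotlib 3.10.9 were used.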

Additional observations from a re-analysis of the deposited data

How the results depend on the processing

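With 1 library per group, all intervals cover counting error only, and depth limits weak regions most. The alternatives were other promoter windows, a −log10 q of at least 5, summits within 250 bp, other centres or scalings, the authors' fold enrichment, no flanks, at least 30 tags and, chosen after seeing the data, gene ends for every gene, table starts only and leaving out LRP5. Of 49 summary values recomputed, 33 stayed within 1.5 times the count or the spread of the value. The 24 promoters shared by both libraries became 15 with table starts only, where 31 genes could be counted (background 61.2%). The median promoter ratio of -0.44 became 0.071 by fold enrichment, 0.014 unscaled and 0.11 scaled to tags read. The median of all genes became -0.12, 0.00 and 0.10. By fold enrichment the WNT median thus lay further above that of all genes than by pileup. With table starts only the medians were -0.36 for the WNT genes and -0.47 for all genes. The 1 promoter higher by 1.5-fold became 2 of 29 with gene ends (background 7.25%). The 1 lower became 0 with summits within 250 bp (background 3.14%), by fold enrichment (background 1.86%) or with table starts only (background 2.33%). Centred by pileup class it became 2 of 24 (background 4.06%). The 14 shared regions higher became 8 at the stricter q, 9 by fold enrichment, 9 without flanks and 8 at 30 tags. The 20 lower became 7 by fold enrichment, 13 without flanks and 10 at 30 tags. Without LRP5 there were 14 higher and 15 lower. Fewer regions were counted without flanks, at the stricter q and at 30 tags; for the other settings the cause was not tested. Of 186 values of single genes or regions, 6 moved beyond their counting interval, all by fold enrichment. The sign turned for 2 of the 186, neither past 1.5-fold: WNT7B by fold enrichment, to 0.20, and FZD1 centred by pileup class, to 0.0085. No paired analysis was possible because each group held 1 library and no test was run.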
